A study of Mus musculus with 4 samples.

Results

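Organic ion and drug transporters were compared between livers with and without Brg1 in hepatocytes. The genes were taken from the deposited table by symbol: every Slco, Slc22a, Slc47a, Abcb and Abcc gene with a number after the family name, except Abcb11, whose value was above 0 FPKM in at least 1 liver. FPKM counts fragments relative to transcript length and library size. Of 61 symbols that fitted the pattern, 8 were listed at 0 in all livers (Slc22a6, Slc22a16, Slc22a20, Slc22a22, Slco6b1, Slco6d1, Abcb5 and Abcc8). The remaining 53 genes, of 22103 entries in the table, were 13 Slco, 21 Slc22a, 2 Slc47a, 8 Abcb and 9 Abcc genes.

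These carriers decide which drugs, toxins, bile pigments, hormones and cations pass through the hepatocyte. Members of the SLC superfamily, here the organic anion transporting polypeptides (Slco), the organic cation, anion and carnitine carriers (Slc22a) and the multidrug and toxin extrusion carriers (Slc47a), move their substrates without hydrolysing ATP. Many of the Slco and Slc22a proteins stand on the sinusoidal membrane and take up solutes from portal blood. Members of the ABC superfamily (Abcb and Abcc) use ATP: some export into the bile canaliculus, some back to blood, and several Abcb proteins work in mitochondria or lysosomes.

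The livers came from 2 WT mice and from 2 Brg1 LKO mice (KO in the sample labels), in which a floxed Smarca4 gene, Smarca4 f/f, was deleted by Alb-Cre, a Cre driven by the albumin promoter and thus active in hepatocytes. Per the study, WT mice were littermates and mice were 8-week-old males. All 4 mice drank alcohol for 15 days per the labels, in the NIAAA model of alcoholic liver disease, in which a liquid ethanol diet ends with a single binge, so an effect of alcohol itself could not be read from these samples. Each replicate is 1 liver from 1 mouse. The study describes the deletion as hepatocyte-specific, and which cells of these livers kept Smarca4 was not measured here.

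Smarca4, which encodes Brg1, the ATPase of the SWI/SNF chromatin remodelling complex, stood at 1.78 and 1.95 FPKM in WT 1 and WT 2 and at 0.608 and 0.579 FPKM in Brg1 LKO 1 and Brg1 LKO 2. The 2 groups did not overlap, and the Brg1 LKO mean was 31.8% of the WT mean (log2 fold change -1.50, unadjusted limma p of 0.000548, Benjamini-Hochberg adjusted p = 1). Estimated depth ran from 72589042 to 80912778 reads a liver. The liver label was borne out by hepatocyte markers, whose summed level lay between 20300 and 25940 FPKM, while 4 of 6 kidney tubule genes (Slc34a1, Umod, Kap and Slc22a6) were listed at 0. Of the other 2, Slc22a8 ran from 0.00360 to 0.0107 FPKM, and Slc5a2, the glucose carrier of the kidney tubule, stood at 0.852 and 1.27 FPKM in WT and at 0.978 and 1.41 FPKM in Brg1 LKO livers. Of 10 macrophage markers, 9 were in the table and all 9 had a log2 fold change above 0, as had 5696 of all 12346 genes tested. Of the 9, 2 were past the study's threshold, against 0.437% of all genes tested that passed it and were higher in Brg1 LKO livers. Only Timd4 overlapped between the groups, at 0.4435 and 0.4377 FPKM in WT livers and 0.353 FPKM in Brg1 LKO 1. Over all genes tested, both Brg1 LKO values lay above both WT values in 10.7%. Sums of the 9 markers were 44.5 and 44.7 FPKM in WT livers and 57.6 and 118 FPKM in Brg1 LKO 1 and Brg1 LKO 2, and none of the 9 was at 0. Sums of 8 cholangiocyte markers were 5.10 and 5.71 FPKM in WT and 4.17 and 4.42 FPKM in Brg1 LKO livers, and those of sinusoidal endothelial, stellate and neutrophil markers overlapped between the groups. Of 10 sinusoidal endothelial markers, 9 had a log2 fold change below 0, as had 53.9% of all genes tested. None of the 10 passed the threshold, and their median was -0.23. The part of these cell types in the transporter values was not tested.

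The genomic sequences ahead of 4 genes are shown because the results turn on them: Slc22a3 and Slco1a4 passed the study's threshold, and Slc22a5 and Slc22a4, neighbours on chromosome 11, shared an uneven pattern between the Brg1 LKO livers. Each line holds 250 bases before to 50 bases after the start of the gene in RefSeq on GRCm38.p6, read 5′ to 3′ on the gene's own strand, which is the minus strand in all 4. The windows are chr17:12507655-12507954 for Slc22a3, chr6:141856171-141856470 for Slco1a4, chr11:53891654-53891953 for Slc22a5 and chr11:54028055-54028354 for Slc22a4. Capitals mark matches, on either strand, to short motifs of promoters: CCAAT boxes (CCAAT), GC boxes (GGGCGG) and E-boxes (CACGTG).

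Slc22a3: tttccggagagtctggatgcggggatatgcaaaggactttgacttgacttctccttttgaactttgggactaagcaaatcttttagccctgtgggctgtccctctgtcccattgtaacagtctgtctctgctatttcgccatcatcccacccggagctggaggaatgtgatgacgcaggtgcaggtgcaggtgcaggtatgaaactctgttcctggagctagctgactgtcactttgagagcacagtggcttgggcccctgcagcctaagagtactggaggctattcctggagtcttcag
Slco1a4: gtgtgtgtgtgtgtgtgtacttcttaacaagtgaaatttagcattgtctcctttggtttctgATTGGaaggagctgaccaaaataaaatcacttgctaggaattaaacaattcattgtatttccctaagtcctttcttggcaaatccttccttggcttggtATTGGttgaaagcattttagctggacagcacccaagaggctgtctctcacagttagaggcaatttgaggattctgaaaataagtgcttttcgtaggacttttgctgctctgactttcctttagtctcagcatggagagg
Slc22a5: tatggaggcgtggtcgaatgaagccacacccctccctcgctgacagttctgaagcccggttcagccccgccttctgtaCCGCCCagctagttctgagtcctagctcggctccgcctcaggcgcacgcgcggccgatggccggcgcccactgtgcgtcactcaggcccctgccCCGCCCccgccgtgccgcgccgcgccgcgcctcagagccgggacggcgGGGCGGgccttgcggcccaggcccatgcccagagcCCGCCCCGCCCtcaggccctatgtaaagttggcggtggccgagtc
Slc22a4: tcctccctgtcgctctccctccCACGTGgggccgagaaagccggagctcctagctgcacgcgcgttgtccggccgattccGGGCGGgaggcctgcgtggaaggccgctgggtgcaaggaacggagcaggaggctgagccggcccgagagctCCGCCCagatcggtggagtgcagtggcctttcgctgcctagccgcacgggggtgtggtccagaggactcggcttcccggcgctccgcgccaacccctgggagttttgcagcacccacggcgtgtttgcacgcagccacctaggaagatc

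The 2 carnitine carrier promoters were GC-rich, with 72.7% G or C in Slc22a5 and 69.0% in Slc22a4, against 52.0% in Slc22a3 and 40.7% in Slco1a4. The Slc22a5 window held 5 GC boxes, 2 of which overlap, and the Slc22a4 window held 2 GC boxes and 1 E-box. The Slco1a4 window held 2 CCAAT boxes and no GC box. In the Slc22a3 window none of the 7 motifs searched was found, which says only that these letters are not in this stretch. A promoter window was matched for 42 of the 53 genes, 30 of them tested for expression. Among the 30, a GC box was found in 11 and a CCAAT box in 10, against 35.7% and 37.4% of all 32851 RefSeq windows of the same length. A TATA box (TATAAA) was found in 5 of 30 against 13.6% of all windows. An AGGTCA nuclear receptor site was found in 6 of 30 against 16.3%, a GTTAAT site of HNF1 in 2 against 7.10%, and an E-box in 2 against 7.15%. A direct repeat of the AGGTCA site with 1 base between, which overlaps that motif, was in none of the 30 and in 0.04% of all windows. These matches are a description of the letters and are no evidence of binding.

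Livers after alcohol held a wide range of transporter messages, down to 0.000985 FPKM for Slco1c1 as a mean of 4 livers. A mean of at least 1 FPKM was reached by 28 genes and a mean of at least 5 FPKM by 14. High means were those of Slco1b2 with 30.4 FPKM, Abcc3 with 22.4 FPKM, Slco2b1 with 18.8 FPKM and Slco1a1 with 17.4 FPKM. The step from Slco2b1 to Slco1a1 was smaller than the spread between the livers of either gene. By the mean over livers, Abcc3 made up 54.1% of the Abcc sum, Abcb6 39.2% of the Abcb sum, and Slc47a1 99.96% of the Slc47a sum.

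**Figure D1:**
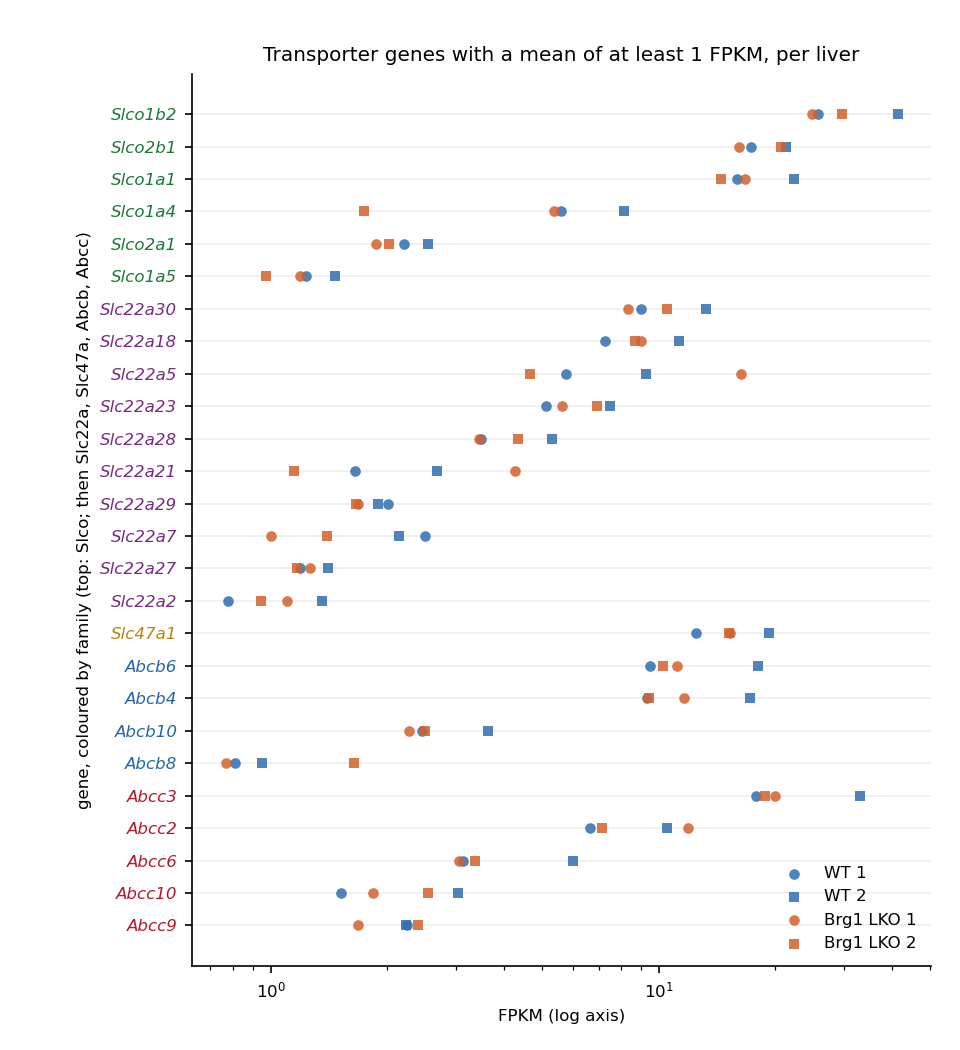
FPKM (log axis) of 26 of the 28 transporter genes that averaged at least 1 FPKM, 1 symbol per liver (blue WT, orange Brg1 LKO, circle replicate 1, square replicate 2). Slco1b2 and Abcc3 lie at the right, WT 2 is the rightmost symbol for most genes, and Slco1a4 in Brg1 LKO 2 (1.74 FPKM) stands apart from its other livers.

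With and without Brg1, most transporter genes had overlapping values, and the few that differed were lower in Brg1 LKO livers. Slc22a3 and Slco1a4, both lower, passed the threshold of the study, which asks for more than a 2-fold change at an unadjusted p under 0.05, and Slc22a7 passed on p alone. In bulk liver RNA, fewer cells of a type and less RNA per cell cannot be told apart. The test was limma on log2(FPKM + 0.1) over the 12346 genes that averaged at least 0.1 FPKM. The pseudocount shrinks the fold change of low genes. It covered 39 of the 53 transporter genes: 8 Slco, 15 Slc22a, 1 Slc47a, 8 Abcb and 7 Abcc.

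Past the threshold were 2 of 39 transporter genes in the lower direction, against 0.543% of all genes tested, and 0 in the higher direction, against 0.437%. An unadjusted p under 0.05 was reached by 3 of 39, all lower in Brg1 LKO livers, against 0.980% of all genes. No transporter gene had a limma adjusted p under 0.05 after Benjamini-Hochberg adjustment over all genes tested, and the share over all genes was likewise 0%. Both Brg1 LKO values lay below both WT values for 9 genes, against 10.0% of all genes: Slc22a3, Slc22a7, Slc22a26, Slc22a29, Slco1a4, Slco2a1, Slco1a5, Slco1a6 and Abcb1b. Both lay above for 1 gene, against 10.7% of all genes. The other 29 overlapped. With 2 livers a group an exact two-sided permutation test cannot reach 0.05, and its smallest p is 0.33. A log2 fold change below 0 was found for 29 of 39 transporter genes, against 53.9% of all genes. Their median was -0.17 against -0.02 over all genes. The direction of this median rested on 1 liver: without WT 2 it was 0.12, with 12 genes lower and 27 higher.

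**Figure D2:**
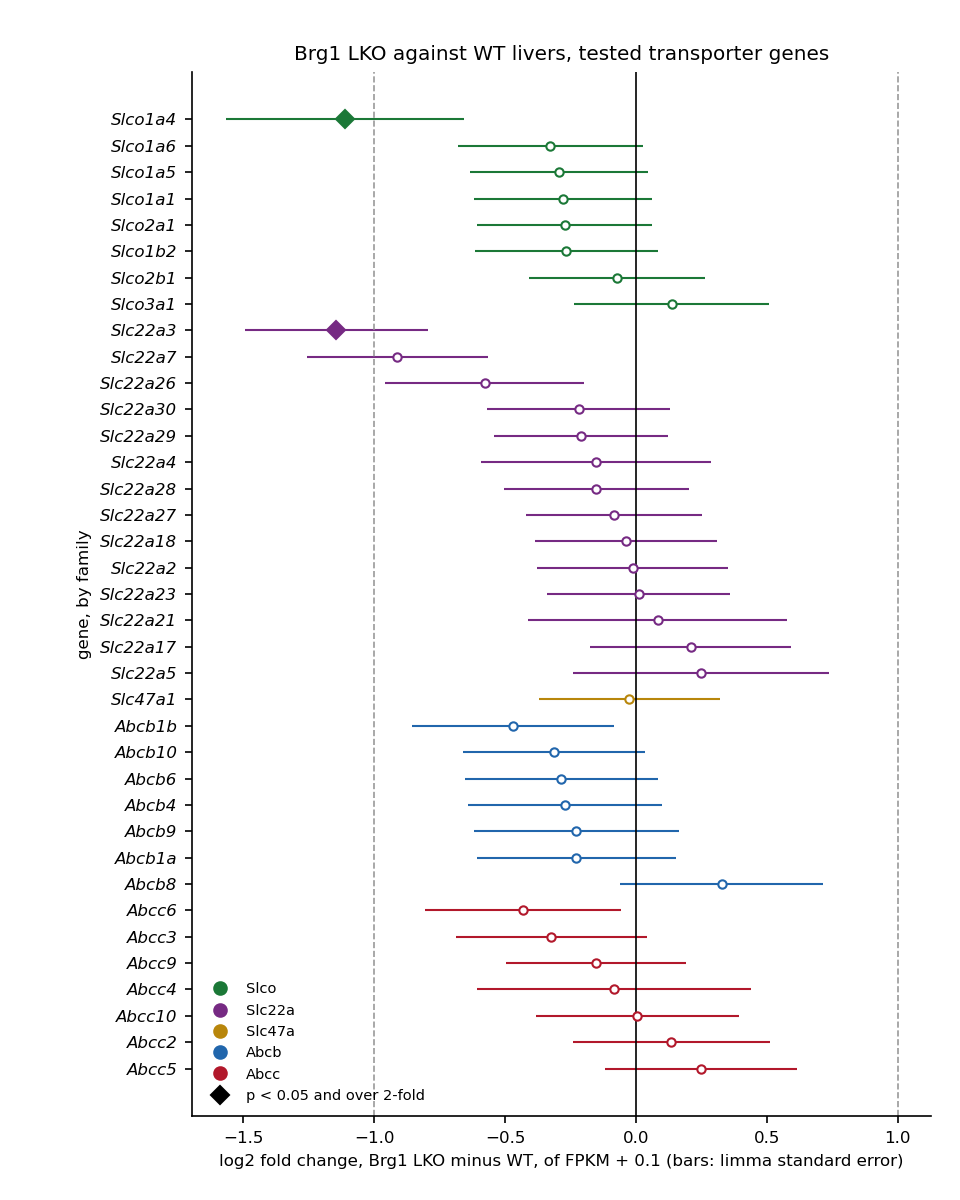
Log2 fold change, Brg1 LKO minus WT, of FPKM + 0.1 for 37 of the 39 tested transporter genes, sorted within family, with the limma standard error as a bar. The filled diamonds, Slco1a4 (-1.11) and Slc22a3 (-1.15), passed the study's threshold, open circles did not, and dashed lines mark a 2-fold change.

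Sinusoidal uptake carriers held all 3 genes with an unadjusted p under 0.05, and all 8 genes of this group had a log2 fold change below 0, with a median of -0.28. Over all tested genes, 0.980% had such a p with a lower level in Brg1 LKO livers, and 53.9% had a log2 fold change below 0. This group was drawn up for the ordering of the text with earlier results of these data known, so its direction is no independent evidence. Brg1 LKO values lay below WT values in 4 of the 8 genes, against 10.0% of all tested genes. Without WT 2, Slco1b2 turned to 0.07, and without Brg1 LKO 1, Slco2b1 turned to 0.11.

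Slc22a3 encodes an organic cation transporter of broad tissue range that carries monoamines and cationic drugs such as metformin. In the table it is transcript ENSMUST00000024595, with 11 exons on the minus strand of chr17:12419969-12507704 (GRCm38). It stood at 0.840 FPKM in WT 1 and 1.13 FPKM in WT 2, and at 0.395 and 0.378 FPKM in Brg1 LKO 1 and Brg1 LKO 2. The Brg1 LKO pair lay close together and clear of the WT pair. The Brg1 LKO mean was 39.2% of the WT mean (limma log2 fold change -1.15, SE 0.35, n = 2 livers a group, unadjusted p of 0.00552, adjusted p = 1). The estimated read numbers behind them were 238 and 316 in WT livers and 108 and 96 in Brg1 LKO livers. Without WT 2, which left 1 WT liver, the log2 fold change was -0.95, short of 2-fold, which ends the call. An antisense gene, AC132106.1, overlaps Slc22a3, and whether the authors' FPKM took strand into account is not given in the sources used here.

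The neighbouring gene Slc22a2 did not pass the test. Slc22a2, a cation transporter best known from kidney, had a Brg1 LKO mean at 95.9% of the WT mean and a log2 fold change of -0.01, which turned to 0.02 after median-ratio rescaling.

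Slco1a4 encodes an organic anion transporting polypeptide that takes up bile salts, steroid conjugates and cardiac glycosides. The table lists transcript ENSMUST00000165990, 17 exons on the minus strand of chr6:141805440-141856171. It stood at 5.59 and 8.16 FPKM in WT livers, at 5.36 FPKM in Brg1 LKO 1 and at 1.74 FPKM in Brg1 LKO 2. Brg1 LKO 1 was just under WT 1, and only Brg1 LKO 2 stood far below the rest. The Brg1 LKO mean was 51.7% of the WT mean, with a log2 fold change of -1.11 (SE 0.46, unadjusted limma p of 0.0289, adjusted p = 1). Without Brg1 LKO 2 the log2 fold change was -0.33, and without Brg1 LKO 1 it was -1.90. Each of these 2 fits set 1 Brg1 LKO liver against 2 WT livers. Without WT 2 the log2 fold change was -0.84, and after median-ratio rescaling it was -1.07 (unadjusted limma p of 0.128). Without the expression filter the unadjusted limma p was 0.097. The change was thus short of 2-fold without Brg1 LKO 2 or WT 2. The call was also lost after rescaling and without the filter. The fold changed most without Brg1 LKO 1 or Brg1 LKO 2.

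The neighbours of Slco1a4 on chr6:141524386-142702218 moved less. In this cluster Slco1b2 takes up bilirubin, bile salts and statins, and Slco1a1 takes up sulfated steroids and is higher in males. Slco1b2 stood at 25.8 and 41.3 FPKM in WT livers and at 24.8 and 29.6 FPKM in Brg1 LKO livers, with WT 2 alone above 30 FPKM. For Slco1a1 the values were 15.9 and 22.3 FPKM in WT livers and 16.7 and 14.5 FPKM in Brg1 LKO livers. Both genes overlapped between the groups, with limma log2 fold changes of -0.27 and -0.28. Brg1 LKO means of Slco1b2, Slco1a1 and Slco1a5 lay between 80.3% and 81.4% of WT. Slco1a5, a bile salt and thyroid hormone carrier, had a mean of 1.35 ± 0.165 FPKM in WT and 1.08 ± 0.154 FPKM in Brg1 LKO livers (SD, n = 2), and Slco1a6 had 0.447 ± 0.0977 and 0.332 ± 0.00595 FPKM. The last 2 genes did not overlap between groups, with limma p-values of 0.404 and 0.371. The ratio of Slco1a1 to Slco1a4 was 2.85 in WT 1, 2.74 in WT 2 and 3.11 in Brg1 LKO 1, but 8.30 in Brg1 LKO 2.

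Slc22a7 encodes an organic anion carrier of the sinusoidal membrane that takes up orotate, cyclic GMP and salicylate. As transcript ENSMUST00000087012 on the minus strand of chr17:46432183-46438457, it stood at 2.51 and 2.15 FPKM in WT livers and at 1.00 and 1.40 FPKM in Brg1 LKO livers. All 4 livers kept to their group, with a gap of 1.40 against 2.15 FPKM between the nearest values. The Brg1 LKO mean was 51.6% of WT, and the log2 fold change was -0.91 (SE 0.35, unadjusted limma p of 0.0197, adjusted p = 1), short of the 2-fold limit. Without Brg1 LKO 2, which left 1 Brg1 LKO liver, the log2 fold change passed the limit at -1.14. The p under 0.05 was lost without any 1 of the other 3 livers.

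The last sinusoidal carriers differed little. Slco2b1, an uptake carrier of sulfated steroids and many oral drugs, stood at 17.3 and 21.3 FPKM in WT livers and at 16.1 and 20.6 FPKM in Brg1 LKO livers. Replicates 2 were the higher ones in both groups, and the groups overlapped (limma log2 fold change -0.07). Slco2a1, the prostaglandin transporter, best known from endothelial cells, had 2.37 ± 0.234 FPKM in WT and 1.94 ± 0.110 FPKM in Brg1 LKO livers (SD, n = 2). It did not overlap, with a limma log2 fold change of -0.27 and an SE of 0.33.

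**Figure D3:**
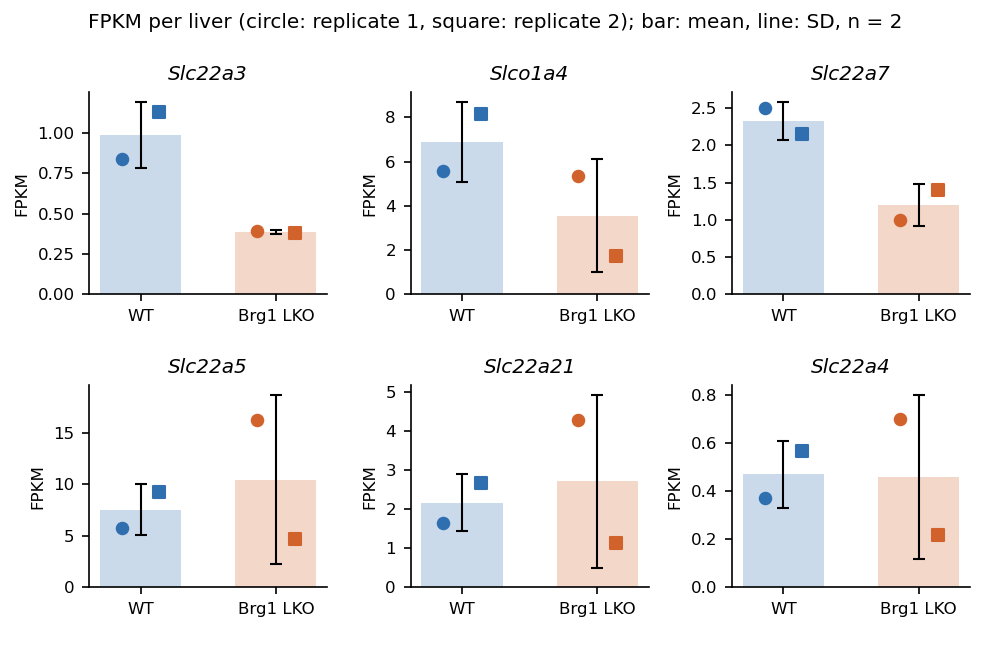
FPKM per liver of 6 genes (circle replicate 1, square replicate 2), with the group mean as a bar and the SD (n = 2) as a line. Slc22a3 and Slc22a7 keep their groups apart, and Slco1a4 is low only in Brg1 LKO 2. The 3 carnitine and zwitterion carriers of the lower row are high in Brg1 LKO 1 and low in Brg1 LKO 2.

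Carnitine and zwitterion carriers showed no difference of the groups but the widest split within the Brg1 LKO group. Slc22a5 is the sodium-dependent carnitine transporter that supplies fatty acid oxidation, Slc22a4 carries ergothioneine, and Slc22a21 is a carnitine carrier found in rodents. The 3 genes lie within chr11:53864542-54028090. Slc22a5 stood at 5.77 and 9.27 FPKM in WT livers, at 16.3 FPKM in Brg1 LKO 1 and at 4.65 FPKM in Brg1 LKO 2. Slc22a21 stood at 1.65 and 2.68 FPKM in WT livers, at 4.28 FPKM in Brg1 LKO 1 and at 1.15 FPKM in Brg1 LKO 2. Slc22a4, at 0.371 and 0.570 FPKM in WT livers, was at 0.701 FPKM in Brg1 LKO 1 and at 0.219 FPKM in Brg1 LKO 2. For each of the 3 genes the highest and the lowest liver were both Brg1 LKO livers, in the same order.

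The ratio of Brg1 LKO 1 to Brg1 LKO 2 was 3.50 for Slc22a5, 3.73 for Slc22a21 and 3.20 for Slc22a4, against a median of 0.795 over all genes tested. The group comparison gave limma log2 fold changes of 0.25, 0.08 and -0.15, with p-values of 0.618, 0.870 and 0.734. Without Brg1 LKO 2 the change of Slc22a5 was 1.14, and without Brg1 LKO 1 it was -0.64, each with 1 Brg1 LKO liver left. Slc22a5 and Slc22a21 have 100-base stretches in common over 13.7% and 12.1% of their transcripts, so their values are not fully separate, while Slc22a4 shares none with either. The ratio of Slc22a5 to Slc22a21 held between 3.46 and 4.06 in all 4 livers. The ratio of Slc22a5 to Slc22a4 was 15.6 and 16.3 in WT livers and 23.2 and 21.2 in Brg1 LKO livers. The remaining carrier of this group, Slc22a15, lay under the expression filter.

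Besides these 3 genes, Slco1a4 (ratio 3.08) and Abcc4 (2.27) were more than 2-fold higher in Brg1 LKO 1 than in Brg1 LKO 2, 5 of 39 against 3.32% of all genes. The reverse held for Abcb8, Abcb9 and Slc22a17, 3 of 39 against 13.9%. These are differences between 2 mice of 1 group, with no replicate.

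Orphan and other SLC22 carriers held 8 tested genes, of which 6 were lower and 2 higher, and none passed the test. Slc22a30, an organic anion carrier of rodent liver and kidney, stood at 8.998 and 13.2 FPKM in WT livers and at 8.32 and 10.5 FPKM in Brg1 LKO livers. Slc22a18, an imprinted orphan carrier, stood at 7.27 and 11.3 FPKM in WT and at 8.98 and 8.67 FPKM in Brg1 LKO livers. The values of Slc22a23, an orphan carrier with no settled substrate, were 5.14 and 7.48 FPKM in WT and 5.62 and 6.94 FPKM in Brg1 LKO livers. In all 3 genes WT 2 was the highest liver and the groups overlapped, with limma log2 fold changes of -0.22, -0.04 and 0.01.

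On chromosome 19, within chr19:7706682-8611835, stand 7 Slc22a genes. The 5 tested ones (Slc22a26, Slc22a27, Slc22a28, Slc22a29 and Slc22a30) each had a log2 fold change below 0, from -0.58 to -0.08, and without WT 2 those of Slc22a27, Slc22a28 and Slc22a30 turned to 0.02, 0.15 and 0.06. Slc22a28 had 4.402 ± 1.29 FPKM in WT and 3.90 ± 0.625 FPKM in Brg1 LKO livers, and Slc22a27 had 1.30 ± 0.147 and 1.22 ± 0.0628 FPKM (SD, n = 2). Slc22a29 was tight within groups, at 1.95 ± 0.0791 FPKM in WT and 1.67 ± 0.0157 FPKM in Brg1 LKO livers, and did not overlap (limma log2 fold change -0.21, SE 0.33). Slc22a26 had the largest change of the group, -0.58, at levels near the filter of 0.1 FPKM, with a limma p of 0.152. These genes are close copies: Slc22a28 has 100-base stretches in common with other transcripts over 37.0% of its length and Slc22a30 over 24.3%, so the authors' assignment of reads between them is uncertain.

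Carriers that export into bile did not pass the test in any of 5 genes. Abcc2, which secretes bilirubin glucuronides and glutathione conjugates, stood at 6.66 and 10.5 FPKM in WT livers and at 11.9 and 7.12 FPKM in Brg1 LKO livers. Brg1 LKO 1 was its highest liver, and the limma log2 fold change of 0.14 turned to -0.23 without that liver. Abcb4, the phosphatidylcholine floppase that protects bile ducts from bile salts, stood at 9.35 and 17.2 FPKM in WT livers and at 11.6 and 9.47 FPKM in Brg1 LKO livers. Slc47a1, the proton exchanger that extrudes organic cations, stood at 12.4 and 19.2 FPKM in WT livers and at 15.2 and 15.1 FPKM in Brg1 LKO livers. For both genes the Brg1 LKO values lay between WT 1 and WT 2, with limma log2 fold changes of -0.27 and -0.03, the latter 0.01 after median-ratio rescaling.

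The P-glycoprotein genes Abcb1a and Abcb1b, which export a broad range of drugs, were low, at 0.537 and 0.246 FPKM on average. Abcb1b did not overlap, at 0.308 ± 0.155 FPKM in WT and 0.184 ± 0.0141 FPKM in Brg1 LKO livers (SD, n = 2), with a limma log2 fold change of -0.47 and an SE of 0.39. Abcb1a, Abcb1b and Abcb4 lie together on chr5:8660077-8959226. The ratio of Abcb4 to Abcb1a varied only between 21.7 and 23.2 over the 4 livers, while the level of each gene differed 1.84-fold and 1.97-fold between WT 2 and WT 1. The ratio of Abcb1a to Abcb1b ran more widely, from 1.90 to 2.69. A similar WT difference, 1.89-fold, was found for Abcb6 on chromosome 1, so it is not particular to this cluster. The transcripts of Abcb4 and Abcb1a have almost no 100-base stretch in common (0.28% of Abcb4), whereas Abcb1a and Abcb1b have 7.72% and 8.72% of their length in common with other transcripts.

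Carriers that export back to blood did not pass the test in any of 5 tested genes. Abcc3, which exports bilirubin and drug glucuronides across the sinusoidal membrane, stood at 17.8 and 33.0 FPKM in WT livers and at 19.9 and 18.8 FPKM in Brg1 LKO livers. WT 2 alone was high, and the limma log2 fold change of -0.32 became 0.12 without it. Abcc6, needed for ATP release from hepatocytes, had 4.58 ± 2.04 FPKM in WT and 3.21 ± 0.211 FPKM in Brg1 LKO livers. Abcc10, an exporter of lipophilic anions, had 2.28 ± 1.07 FPKM in WT and 2.19 ± 0.501 FPKM in Brg1 LKO livers, all SD with n = 2. The lower members Abcc4 and Abcc5, both exporters of cyclic nucleotides, overlapped, and Abcc4 had the widest WT split of the tested transporter genes, 4.48-fold between WT 2 and WT 1. Abcc9, the sulfonylurea receptor subunit of a potassium channel of vascular and mural cells and no drug exporter, had 2.24 ± 0.01003 FPKM in WT and 2.04 ± 0.504 FPKM in Brg1 LKO livers.

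ABCB proteins of mitochondria, lysosomes and other organelles had no gene past the threshold among 5 tested. Abcb6, a porphyrin carrier, stood at 9.51 and 17.99 FPKM in WT livers and at 11.2 and 10.3 FPKM in Brg1 LKO livers. WT 2 was its highest liver and WT 1 its lowest. Abcb6 shares 62.2% of its 100-base stretches with Gm29253, an overlapping annotated gene on the same strand, so its level is uncertain. Abcb10, a mitochondrial carrier of haem synthesis, had 3.04 ± 0.836 and 2.39 ± 0.155 FPKM in WT and Brg1 LKO livers (SD, n = 2). Abcb8, another mitochondrial carrier, had 0.880 ± 0.0966 and 1.20 ± 0.618 FPKM, the latter through Brg1 LKO 2, and its log2 fold change of 0.33 turned to -0.18 without that liver.

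By family, summed FPKM showed no separation of the groups. The Slco sum was 68.9 and 98.1 FPKM in WT livers and 66.8 and 70.5 FPKM in Brg1 LKO livers, so the Brg1 LKO mean was 82.2% of WT (exact two-sided permutation p = 0.667). The Slc22a sum was 81.3 and 124.9 FPKM in WT livers and 99.6 and 89.4 FPKM in Brg1 LKO livers. The Slc47a sum, in effect Slc47a1, was 12.4, 19.2, 15.2 and 15.2 FPKM in the same order of livers. The Abcb sum was 24.96 and 43.4 FPKM in WT livers and 29.2 and 27.4 FPKM in Brg1 LKO livers, and the Abcc sum was 32.4, 57.1, 40.0 and 35.9 FPKM. In these 4 families both Brg1 LKO livers lay between WT 1 and WT 2, and the exact permutation p was 1 in each. Family medians of the log2 fold change were -0.28 for Slco, -0.15 for Slc22a, -0.25 for Abcb, -0.08 for Abcc and -0.03 for the single tested Slc47a gene. Without WT 2 the medians of Slc22a, Abcb and Abcc turned positive, at 0.15, 0.17 and 0.31. No family was tested against another.

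**Figure D4:**
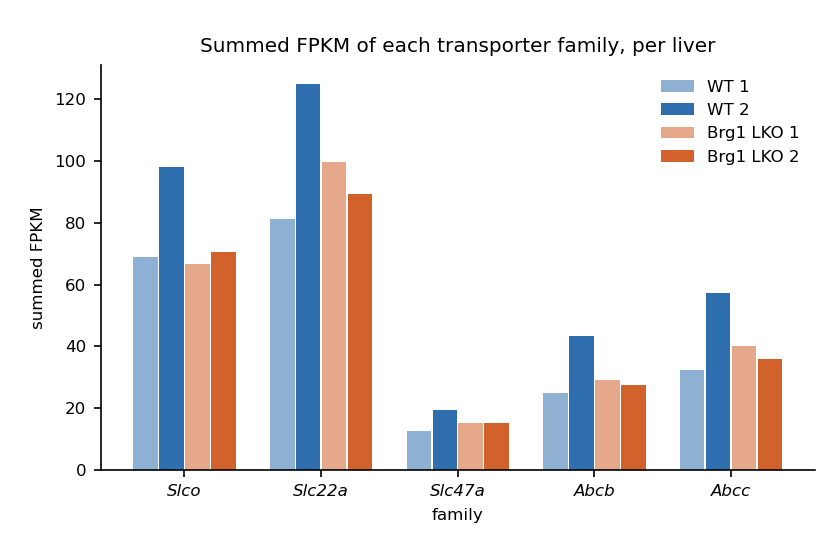
Summed FPKM of each transporter family in each liver (bars start at 0, light replicate 1, dark replicate 2). WT 2 is the highest bar in all 5 families, and both Brg1 LKO livers lie between the WT livers for Slc22a, Slc47a, Abcb and Abcc.

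For many transporter genes the values of the 2 WT livers lay far apart. WT 2 was the highest of the 4 livers for 26 of 39 tested genes, against 42.1% of all genes, and was more than 1.5 times WT 1 for 19 of 39, against 19.8%. Brg1 LKO 2 was highest for 6 genes, Brg1 LKO 1 for 4 and WT 1 for 3, the last being Slc22a7, Slc22a26 and Slc22a29. The median ratio of WT 2 to WT 1 was 1.48 over the transporter genes and 1.23 over all genes tested. It was 1.80 in Abcb and 1.86 in Abcc, 1.47 in Slc22a and 1.30 in Slco. The libraries as a whole differed in the same direction, with median-ratio size factors of 0.912 and 1.13 for WT 1 and WT 2 and 0.884 and 1.11 for Brg1 LKO 1 and Brg1 LKO 2. After rescaling by these factors WT 2 was the highest liver for 19 of 39 transporter genes, against 24.0% of all genes, and the median ratio of WT 2 to WT 1 was 1.20 against 0.990. The rescaling itself sets this median ratio over all genes.

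On the rescaled values the transporter genes had medians of 92.6% and 111% of the gene mean in WT 1 and WT 2 and of 102% and 82.3% in Brg1 LKO 1 and Brg1 LKO 2. The order within each group thus ran in opposite directions by replicate number. Over all genes the 4 livers lay between 98.7% and 99.3%, which the rescaling itself brings about, since its factors are medians over genes. WT 2 also had the lowest hepatocyte marker sum, 20300 FPKM against 22410 to 25940 FPKM in the other livers, and the lowest neutrophil marker sum, 4.35 FPKM against 8.09 to 16.4 FPKM. The hepatocyte sum was led by Alb, at 10710 FPKM in WT 2, and its markers did not all follow it. Alb, Fgb and Cps1 were lowest in WT 2, Ttr and Ass1 in WT 1, and Apoa1, Serpina1c and Tat in a Brg1 LKO liver. Ttr was highest in WT 2. Brg1 LKO 2 had the highest macrophage sum. The part of these differences in the transporter levels was not tested.

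**Figure D5:**
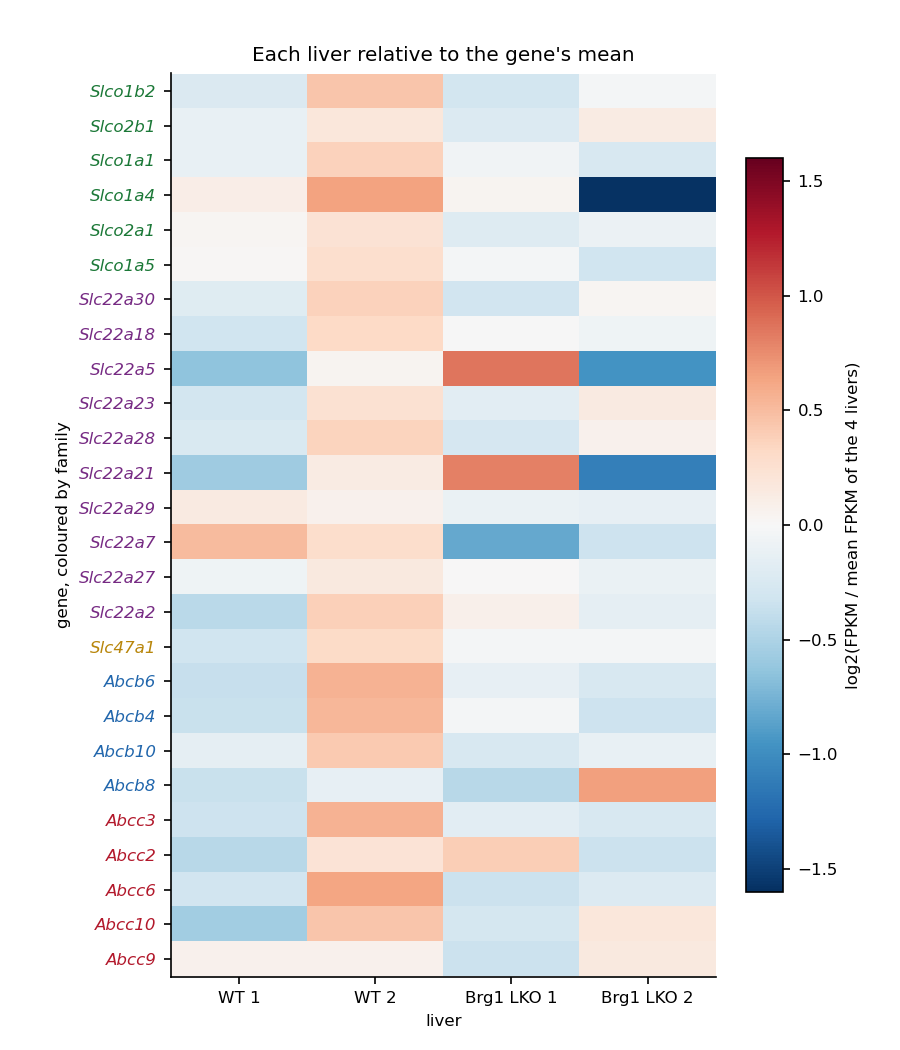
Level of 26 of the 28 genes that averaged at least 1 FPKM in each liver, as log2 of FPKM over the gene's mean of the 4 livers (deposited values, red above and blue below the mean). WT 2 is red for most genes, and Slc22a5, Slc22a21 and Slco1a4 are dark blue in Brg1 LKO 2.

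Genes under the filter numbered 14, with means from 0.000985 to 0.0850 FPKM and no more than an estimated 76 reads in any liver. They were not tested. Both Brg1 LKO values lay above both WT values for 5 of them, Abcc1, Slc22a19, Slco4c1, Slco6c1 and Slco5a1, against 13.7% of the 4507 genes that lay above 0 but under the filter. Abcc1, an exporter of glutathione conjugates that is low in hepatocytes, was the best covered, at 24 and 28 estimated reads in WT livers and 45 and 41 in Brg1 LKO livers. Slco6c1 and Slco5a1 were listed at 0 in both WT livers and had between 1 and 4 estimated reads in Brg1 LKO livers, so no fold change is given. Slc22a8 and Slc47a2, carriers best known from kidney, had at most 3 estimated reads a liver.

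Other genes of hepatic transport, a list of 37 genes for bile acid and nucleoside carriers, membrane scaffolds and regulators of transporter genes, gave 36 tested genes and none past the threshold or with an unadjusted limma p under 0.05. Of these, 18 were lower and 18 higher, with a median log2 fold change of -0.02. Brg1 LKO values lay below WT values for 3 of the 36 genes, against 10.0% of all tested genes, named after their values were seen: Slc29a1, a nucleoside carrier, Slc9a3r2, a membrane scaffold, and Nr1h4, the bile acid receptor. They lay above WT for 6 genes, against 10.7% of all tested genes. The lowest limma p of the list was 0.0592, for Ppara, the fatty acid receptor that regulates Slc22a5, at 1.58 and 1.80 FPKM in WT livers and 2.39 and 3.34 FPKM in Brg1 LKO livers (log2 fold change 0.71, adjusted p = 1). Its higher Brg1 LKO liver was Brg1 LKO 2, in which Slc22a5 was lowest. This is 1 mouse, and a part of Ppara in the Slc22a5 levels was not tested. Slc51a, a subunit of the basolateral bile acid exporter, was listed at 0 in all livers.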

How the data were processed

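Whole-liver RNA-seq of 2 WT and 2 Brg1 LKO mice was analysed. The authors deposited FPKM, 1 value per gene and liver. Per the study's methods, reads were trimmed with Trimmomatic, mapped to GRCm38 with HISAT2 and quantified with Cufflinks, whereas the submitters' processing notes name HISAT2 2.0.4 and StringTie 2.1.4. The study describes stranded TruSeq libraries and the labels a BGIseq protocol. The study's DESeq test of read counts was not used here, since the deposited values are FPKM. FPKM is relative to each library's total, so a change in abundant genes shifts the others. Brg1 LKO was compared with WT, two-sided, by limma 3.58.1 (R 4.3.3), using lmFit and eBayes with a mean trend. The values were log2(FPKM + 0.1) of the 12346 genes that averaged at least 0.1 FPKM, with Benjamini-Hochberg adjustment over all of them and the study's threshold of an unadjusted p under 0.05 and a change above 2-fold. The script was tested on simulated data. Family sums were compared by exact permutation. Among entries that share a symbol, 50 were renamed, and 27 symbols turned into dates were restored.

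Transcript positions and lengths came from GENCODE M21, found for all 53 transporter genes, of which 15 overlap an antisense gene. On transcripts of at least 2000 bases, low FPKM values step with 1 read, which gave the depth. Of values worth no more than 20 reads, 88.5% to 89.5% came within 0.1 of a whole number, so reads of single genes are estimates. Whether such a read stands for 1 read or a pair could not be settled. Promoter windows came from RefSeq (GRCm38.p6). Shared 100-base stretches were counted over all GENCODE M21 transcripts of other genes, and 10 transporter genes had over 5% in common.

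Replicate numbers are shared by the groups, but nothing in the labels pairs mice of equal number, and deviations of equal numbers from their group means had a correlation of 0.031. This correlation runs across genes and cannot register a shift of a whole library. Median-ratio size factors were lower for both replicates 1 (0.912 in WT, 0.884 in Brg1 LKO) than for both replicates 2 (1.13 and 1.11). The reason was not tested. Named were genes averaging at least 1 FPKM or with an unadjusted p under 0.05 or over 2-fold, with values per liver for means of at least 5 FPKM. Other genes are given as examples, and 2 genes enter the counts, medians and sums but are not reported here singly. The members, gene lists and roles were chosen with earlier results of these data known. Alternatives were pseudocounts of 1 and 0.01, no filter, a filter at 1 FPKM, rescaling by median ratios or quantiles, an untrended eBayes, a replicate block and each liver left out.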

Additional observations from a re-analysis of the deposited data

How the results depend on the processing

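With 2 livers a group, the direction of most small changes depended on 1 liver. Of 46 genes followed over the alternatives, 20 kept their direction in all of them and 26 turned when 1 liver was left out. The 46 were 37 transporter genes and those other transport genes whose groups did not overlap. A gene whose groups do not overlap cannot turn when 1 liver is left out, so for such genes that outcome was fixed in advance. Transporter genes past the threshold numbered 2 with the reported settings (Slc22a3 and Slco1a4) and 0 with a pseudocount of 1. Only Slc22a3 passed with no filter, median-ratio rescaling or quantile normalization. Only Slco1a4 passed with a filter at 1 FPKM, where Slc22a3, with a mean of 0.6855 FPKM, was not tested. The replicate block pairs livers by a number that the design does not tie to shared mice. With it only Slc22a3 passed, with Slco1a4 at an unadjusted limma p of 0.0729, and no other transporter call changed. Over all genes tested in each setting, 121 passed with the reported settings and 18 with a pseudocount of 1. Under the other settings with all 4 livers, 68 to 167 passed. With 1 liver left out, calls shifted over all genes, so those counts are not compared. Without WT 2 the calls of Slc22a3 and Slco1a4 were both lost. Changes over 2-fold among transporter genes numbered 2. They numbered 0 at the pseudocount of 1, 1 after filtering at 1 FPKM, and 1 to 3 with a liver left out. Transporter genes with a limma adjusted p under 0.05 numbered 0 in every setting with all 4 livers. Other transport genes past the threshold also numbered 0 in each of these settings. Transporter genes with Brg1 LKO below WT ranged from 9 to 29 with a liver left out, and those with Brg1 LKO above WT from 1 to 13, with 3 after quantile normalization. With 1 liver against 2, groups separate more readily for any gene. The shares over all genes given above therefore do not apply to the counts with a liver left out, which cannot be read as a result. Smarca4 stayed lower but fell short of 2-fold with a pseudocount of 1 (-0.85).

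With a WT liver left out, the median log2 fold change ran from -0.41 to 0.12 over all tested transporter genes, from -0.35 to 0.15 in Slc22a, from -0.61 to 0.17 in Abcb and from -0.47 to 0.31 in Abcc. The difference in summed FPKM ran from -30.4 to 13.2 for Slc22a, from -4.04 to 2.75 for Slc47a, from -15.2 to 3.31 for Abcb and from -19.2 to 5.57 for Abcc, and that of Slc47a was 0.105 after median-ratio rescaling. The log2 fold changes without WT 1 to those without WT 2 were as follows: Abcb6 (-0.74 to 0.17), Abcb4 (-0.71 to 0.17), Abcb1a (-0.64 to 0.19), Abcc3 (-0.77 to 0.12), Abcc6 (-0.89 to 0.0293), Abcc10 (-0.47 to 0.48), Abcc4 (-0.9994 to 0.83), Slc22a30 (-0.49 to 0.056), Slc22a18 (-0.35 to 0.28), Slc22a23 (-0.26 to 0.28), Slc22a28 (-0.45 to 0.15), Slc22a27 (-0.19 to 0.023), Slc22a2 (-0.38 to 0.35), Slc47a1 (-0.34 to 0.29) and Slco1b2 (-0.60 to 0.0717). Without Brg1 LKO 2 to without Brg1 LKO 1 they were, for Abcb8 (-0.18 to 0.83), Abcb9 (-0.54 to 0.0869), Abcc9 (-0.39 to 0.0908), Abcc5 (-0.13 to 0.63), Slc22a17 (-0.14 to 0.56), Slco2b1 (-0.25 to 0.11) and Slco3a1 (-0.23 to 0.50). Without Brg1 LKO 1 to without Brg1 LKO 2 they were, for Abcc2 (-0.23 to 0.50), Slc22a5 (-0.64 to 1.14), Slc22a21 (-0.82 to 0.99) and Slc22a4 (-0.82 to 0.51). Changes close to 0 also turned for Abcc10 with a pseudocount of 1 (-0.0089), for Slc22a2 with median-ratio rescaling (0.0235) and quantile normalization (0.0356), and for Slc47a1 with median-ratio rescaling (0.0085). A liver left alone in its group is assumed to vary like the others. The causes were not tested. Genes above 1 FPKM had over 100 estimated reads in every liver, but genes under the filter were tested only in the fit with no filter.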
